A study of Mus musculus with 8 samples.

Results

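Of the 2073 regions bound by SMAD4 in E9.5 mouse limb bud tissue, 520 (25.1%) lay between genes, away from any transcript start, and had no counterpart in the E10.5 list. These E9.5-only intergenic peaks were defined by 3 conditions. They overlapped no E10.5 peak by 1 bp or more, their centre lay more than 5 kb and less than 100 kb from the nearest annotated transcript start, and the centre fell in no annotated gene body. They made up 30.8% of the 1686 E9.5 peaks without an E10.5 counterpart, and 520 of the 8258 peaks in both lists. The absence of an E10.5 peak and the position relative to genes chose these peaks and are therefore given as a description only.

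The data came from NMRI embryos homozygous for a Smad4 allele with a 3xFLAG epitope tag (Smad4 3xF/3xF), so that endogenous SMAD4 was precipitated with the M2 anti-FLAG antibody in all ChIP samples. All groups carried this allele. The series holds 8 samples, with 2 SMAD4 ChIP and 2 input samples per stage. The E9.5 samples pooled forelimb buds and attached trunk tissue of about 80 embryos per replicate, which the protocol dates to E9.75, whereas the E10.5 samples pooled fore- and hindlimb buds of about 100 embryos per replicate. The tissue labels and the methods name trunk at E9.5 only, whereas the source labels give forelimb bud for all samples and the description of the experiment mentions proximal trunk without naming a stage. Stage and dissected tissue therefore cannot be told apart, and cells of the neural tube, somites, vessels and flank could be in the E9.5 samples. Both replicates of a stage had been merged into 1 peak list before deposition, so no value has a replicate error, the depth behind each list is unknown, and the tests between sets of peaks compare these lists and not the conditions.

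SMAD4 is the common partner of the receptor-activated SMAD proteins. After BMP or TGFβ ligands bind their receptors, SMAD complexes enter the nucleus and bind short DNA sequences, the SMAD box (CAGAC and its complement) and, for the BMP-activated SMADs, a GC-rich form (GGCGCC). Many of the regulatory elements that control genes of limb patterning are enhancers far from the gene that they regulate, often in the long stretches between genes.

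The sequences at the centres of a few E9.5-only intergenic peaks show what was searched. All are read from mm9 on the plus strand, 5′ to 3′, and capitals mark SMAD boxes on either strand, the GC-rich form and the palindrome made of 2 SMAD sites (GTCTAGAC). The first 3 windows of 300 bp belong to the best-scored peaks, and the fourth to the peak upstream of Ptch1, the SHH receptor, which ranked 8 of 520. They are chr9:41758811-41759110 between 2610203C20Rik and Sorl1, chr4:29199064-29199363 between Epha7 and Map3k7, chr4:99126138-99126437 between Gm12689 and Foxd3, and chr13:63711153-63711452 between Ptch1 and 0610007P08Rik.
Sorl1 window: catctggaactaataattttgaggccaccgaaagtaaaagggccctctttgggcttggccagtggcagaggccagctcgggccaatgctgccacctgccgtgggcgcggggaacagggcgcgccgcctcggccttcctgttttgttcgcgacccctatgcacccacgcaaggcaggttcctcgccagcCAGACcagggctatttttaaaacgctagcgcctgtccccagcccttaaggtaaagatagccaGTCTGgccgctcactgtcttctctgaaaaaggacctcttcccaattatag
Epha7 window: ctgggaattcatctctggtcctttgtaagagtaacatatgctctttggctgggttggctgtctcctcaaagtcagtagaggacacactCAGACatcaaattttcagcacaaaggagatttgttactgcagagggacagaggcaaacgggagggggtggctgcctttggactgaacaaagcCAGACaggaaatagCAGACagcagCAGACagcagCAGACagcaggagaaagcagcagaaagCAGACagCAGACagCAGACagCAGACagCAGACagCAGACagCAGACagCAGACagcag
Foxd3 window: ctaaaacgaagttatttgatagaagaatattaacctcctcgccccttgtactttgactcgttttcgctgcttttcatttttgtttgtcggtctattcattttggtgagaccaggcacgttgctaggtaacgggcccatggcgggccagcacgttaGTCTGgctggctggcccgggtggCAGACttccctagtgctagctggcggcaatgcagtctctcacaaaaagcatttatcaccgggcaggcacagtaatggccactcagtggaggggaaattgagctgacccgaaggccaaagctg
Ptch1 window: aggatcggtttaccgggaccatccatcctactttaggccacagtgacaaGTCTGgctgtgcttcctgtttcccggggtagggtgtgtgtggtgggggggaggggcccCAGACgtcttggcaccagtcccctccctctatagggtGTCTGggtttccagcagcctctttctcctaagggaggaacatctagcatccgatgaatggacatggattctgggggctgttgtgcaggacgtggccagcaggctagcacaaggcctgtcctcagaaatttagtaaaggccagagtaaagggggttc
The Sorl1 and Foxd3 windows each held 2 SMAD boxes and the Ptch1 window held 3. The Epha7 window held 13, of which most sit in a run of short tandem copies at its right end. Matches in such a run are counted 1 by 1 but are not separate sequence contexts.

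The palindrome was found in the central 300 bp of 7 of the 520 peaks (1.35%, 95% Wilson interval 0.654 to 2.75%). It is shown for 4 of them with 16 bases on each side. They lie at chr17:8061720-8061759 upstream of Fndc1, at chr13:117084276-117084315 downstream of Isl1, a LIM homeodomain regulator of hindlimb, heart and motor neurons, at chr12:26302520-26302559 in the long interval next to Id2, an inhibitor of bHLH factors and a target of BMP signals, and at chr6:52378429-52378468 between Evx1 and Hibadh. The Id2 window also held the GC-rich form, at chr12:26302623-26302660, which is printed last.
Fndc1 site: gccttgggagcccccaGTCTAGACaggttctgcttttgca
Isl1 site: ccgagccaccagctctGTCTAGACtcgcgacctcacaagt
Id2 site: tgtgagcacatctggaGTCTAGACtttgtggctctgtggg
Evx1 site: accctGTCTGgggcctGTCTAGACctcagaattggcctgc
Id2 GC-rich site: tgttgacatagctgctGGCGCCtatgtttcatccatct
Over their full widths, 23 of the 520 peaks (4.42%) held a palindrome. Those next to listed genes included the peak upstream of Pitx1, both peaks upstream of Pmepa1, the peak between Hoxc10 and Hoxc11, and the peaks next to Twist2 and Sox5.

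The scores of these peaks lay slightly below those of the whole E9.5 list. The score is the value that the authors gave each peak, and its unit is not named in the lists. By the methods a merged peak kept its best MACS p-value, and the range of the scores would fit a log-scaled p-value, with higher scores for smaller p-values. The median over the 520 peaks was 53.9 (quartiles 49.8 and 61.3), compared with 56.3 (quartiles 50.84 and 68.45) in the whole E9.5 list. Their lowest value was 32.5 and their highest 297. A score of 100 or more was given to 14 of 520 peaks (2.69%) and a score of 150 or more to 6. The median width was 1080 bp (range 222 to 6061 bp), and 291 peaks (56.0%) were 1000 bp or wider.

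**Figure D1:**
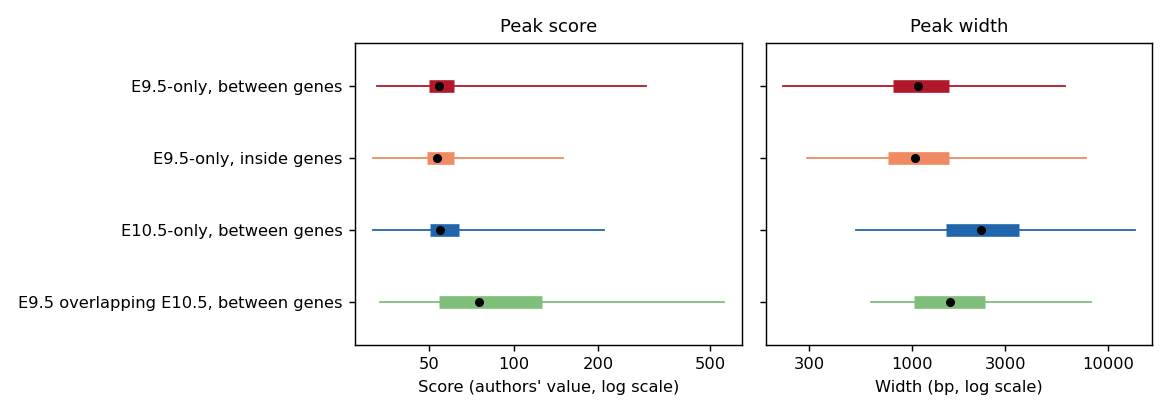
Score (left) and width in bp (right) of 4 sets of distal peaks, both on log axes. Thin lines span the lowest to the highest value, thick bars the quartiles and black dots the median. The E9.5-only peaks between genes (median width 1080 bp) and those inside genes (1044 bp) have lower median widths than the E10.5-only peaks (2256 bp).

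Scores and widths did not differ past the threshold between intergenic and genic positions. Of the peaks between genes, 208 of 520 scored above the median of the whole E9.5 list (56.3), compared with 210 of the 517 E9.5-only distal peaks inside genes (difference -0.619 percentage points, 95% Newcombe interval -6.57 to 5.33, exact adjusted p = 0.85, two-sided Fisher's exact test). The shares wider than the list median of 1244 bp were 39.2% and 37.7% (difference 1.51 points, interval -4.40 to 7.41, exact adjusted p = 0.85). The 42 E9.5 distal intergenic peaks that did overlap an E10.5 peak had a median score of 74.8 and a median width of 1564 bp. That difference was not tested, since a stronger and wider peak is also more likely to overlap another.

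The best-scored E9.5-only intergenic peaks lay in varied surroundings. The highest score, 297, was that of chr9:41757914-41760009, which ranked 30 in the whole E9.5 list. It lay 23.7 kb from the nearest start of a Sorl1 transcript and 173 kb from the 5′ end of the Sorl1 gene, which encodes a sorting receptor, and an E10.5 peak lay 13.3 kb away. The second, chr4:29198754-29199675 (score 222), sat in an interval of 3156 kb whose near gene was Epha7, an ephrin receptor, 459 kb away, and held no E10.5 peak. The third, chr4:99125888-99126689 (score 188), was 197 kb upstream of Foxd3, a regulator of neural crest progenitors. The next 3 were chr17:81226382-81227221 between Map4k3 and Tmem178 (170), chr17:8060855-8062535 between Fndc1 and Tagap (166) and chr7:6722558-6723639 between the imprinted genes Peg3 and Usp29 (154). Rank 7, chr17:15714159-15714902 (149), was 13.2 kb upstream of Prdm9, a histone methyltransferase of meiotic cells. Ranks 9 and 10 were chr2:30611627-30616317 between Cstad and 1700001O22Rik (131) and chr12:8408573-8409437 between Hs1bp3 and Rhob, which encodes a small GTPase (121). In 5 of these 10 intervals no E10.5 peak was present, as was so for 64.2% of all 520 peaks.

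Distances to transcript starts ran over the whole range that the rule allows. The median was 26.6 kb (quartiles 14.4 and 52.7 kb). Between 5 and 10 kb lay 75 peaks (14.4%), between 10 and 25 kb 172 (33.1%), between 25 and 50 kb 122 (23.5%) and between 50 and 100 kb 151 (29.0%). The nearest start belonged to a protein-coding gene for 328 peaks (63.1%), to a pseudogene for 45, and to a non-coding RNA gene or transcript for the rest. Measured to protein-coding starts alone, the median distance was 40.4 kb, and 74 peaks (14.2%) were 100 kb or farther from any. Upstream of the nearest protein-coding start lay 327 peaks (62.9%). The flanking protein-coding genes ended or began a median of 141 kb apart (8.29 to 3801 kb).

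**Figure D2:**
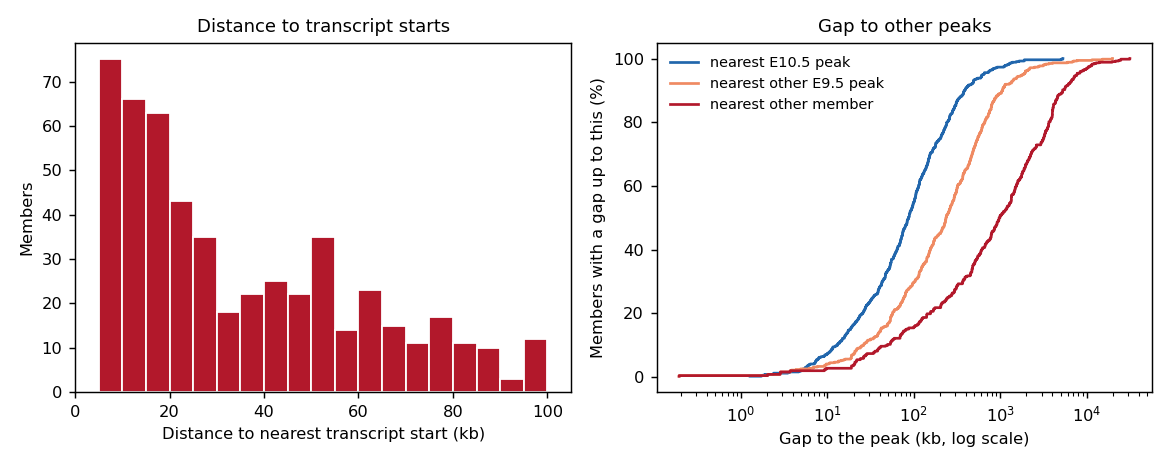
Left, number of E9.5-only intergenic peaks (members) by distance from the peak centre to the nearest transcript start, in kb, in bins of 5 kb. Right, percentage of members whose edge-to-edge gap to the nearest E10.5 peak, other E9.5 peak or other member is at most the value on the x axis (kb, log scale). Of the members, 55.0% have an E10.5 peak within 100 kb and 15.8% have another member that close.

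The values at the limits of the rule were as follows. The peak closest to a transcript start was chr2:53550408-53551259, 5.005 kb from Gm13502, and the closest one left out was chr8:89108773-89110376, 4.989 kb from Abcc12. At the outer limit, chr6:100883180-100883786 was 99.9 kb from Ppp4r2, and chr3:52172774-52174574, left out, was 100.3 kb from the nearest start. The peak nearest to an E10.5 peak was chr4:114749056-114749827 (score 58.2), 1271 bp away from it. It lay 20.4 kb downstream of the start of Tal1, a regulator of blood and endothelial development. The smallest overlap among the 42 peaks with an E10.5 counterpart was 623 bp.

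An E10.5 peak was nonetheless often in the neighbourhood. The gap to the nearest one had a median of 86.7 kb (quartiles 33.9 and 203 kb). It was 5 kb or less for 11 peaks (2.12%), 25 kb or less for 103 (19.8%) and 100 kb or less for 286 (55.0%), and exceeded 250 kb for 19.6% of the peaks. In 186 cases (35.8%) an E10.5 peak lay in the same interval between protein-coding genes, and in 334 (64.2%) none did. An E9.5 peak that was shared with E10.5 lay in the same interval for 16 (3.08%). Because the E10.5 list is longer and its peaks are wider, these distances describe the lists, and a region without an E10.5 peak was not shown to be unbound.

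Another E9.5 peak of any kind lay within 100 kb of 155 of the E9.5-only intergenic peaks (29.8%), with a median gap of 235 kb. Another E9.5-only intergenic peak lay within 100 kb of 82 (15.8%) and within 10 kb of 14 (2.69%), and the median gap to the next was 978 kb. The 82 formed 38 pairs and 2 groups of 3. One group of 3 spanned 75 kb between Wscd1 and Aipl1 (scores 88.2, 80.8 and 58.4), and the other spanned 116 kb between 9530068E07Rik and Fstl4 (66.8, 53.3 and 47.5), a gene of the follistatin-like family. The closest pair, between E330021D16Rik and Gm6728, was separated by 192 bp. The next pairs were separated by 2.03 kb downstream of Irf2bp2, by 2.83 kb upstream of Pmepa1 (79.5 and 71.1), by 2.85 kb between Pdgfra and Kit (80.1 and 57.4) and by 3.71 kb between Myo1d and Tmem98. Pdgfra and Kit encode receptor tyrosine kinases of mesenchyme and of blood, germ and pigment cells, and a further peak (68.6) lay between Kit and Kdr, the VEGF receptor of endothelium. Chromosome 9 held the most (44), and chromosome X held 3 of its 14 E9.5 peaks.

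The 520 peaks had 921 protein-coding genes as their immediate neighbours, which is 4.12% of the 22350 annotated. Of 321 listed genes of limb patterning, signalling and neighbouring tissues that could be matched to the annotation, 51 (15.9%) were among them. The 1066 E10.5-only distal peaks between genes were next to 1688 genes (7.55% of all) and 67 of the listed genes (20.9%). Listed genes had longer stretches on both sides together (median 148 kb, compared with 49.0 kb for all protein-coding genes), and a longer stretch has more room for a peak. The part of this length in the counts was not tested. Counting instead the 1 gene with the nearest protein-coding start left 27 of the 321 listed genes and 482 genes in all, with SHH pathway and FGF pathway counts of 2 and 1 rather than 4 each. A neighbouring gene is not a regulated gene, and 32 of the 51 had a peak less than 100 kb from the 5′ end of the gene.

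**Figure D3:**
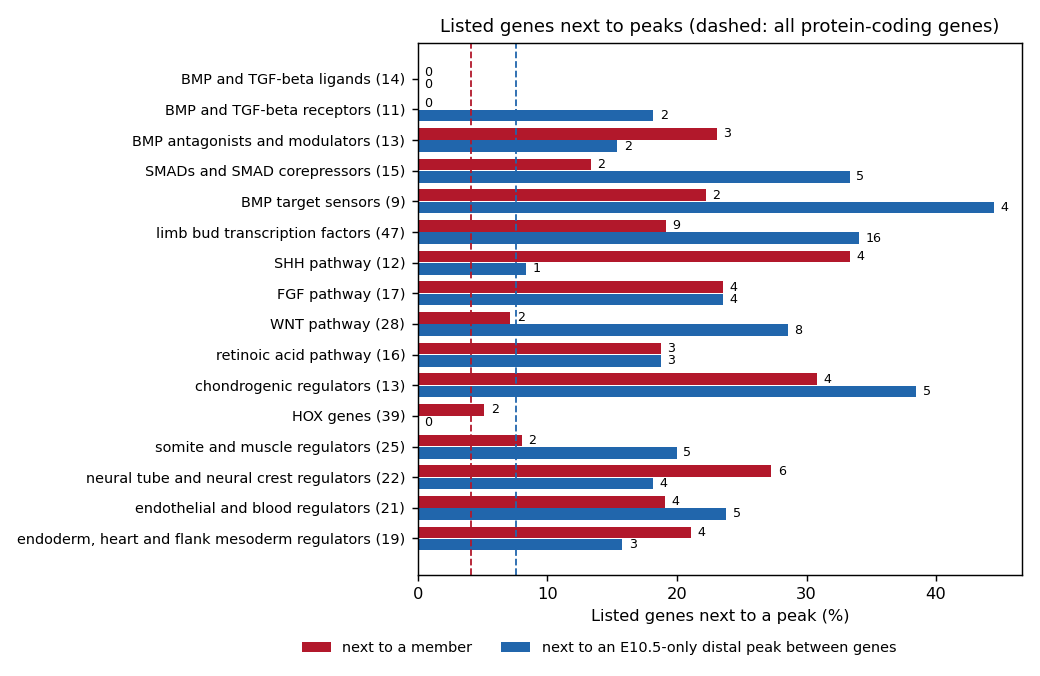
Percentage of the genes in each list (number annotated in brackets) that are the nearest protein-coding neighbour, on either side, of an E9.5-only intergenic peak (member, red) or of an E10.5-only distal peak between genes (blue), with the number of genes at each bar. Dashed lines mark the share over all protein-coding genes (4.12% and 7.55%). The SHH pathway has 4 of 12 genes next to a member and 1 of 12 next to an E10.5-only peak.

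For the BMP and TGFβ pathways together, 0 of 14 ligand genes and 0 of 11 receptor genes were next to an E9.5-only intergenic peak. Next to an E10.5-only one were 0 and 2. Of all protein-coding genes 4.12% and 7.55% were neighbours of the E9.5-only and E10.5-only peaks, and of all listed genes 15.9% and 20.9%. Whether the ligand and receptor lists differ from these shares was not tested. Among 13 antagonists and modulators there were 3 (2 at E10.5). Fst, which encodes follistatin, a secreted inhibitor of activins and BMPs, had a peak 29.8 kb upstream (score 41.0). Fstl1, a secreted relative, had one 23.1 kb upstream (50.6), and the peak next to Bambi, a decoy receptor, was 630 kb away. Among 15 SMADs and corepressors there were 2 (5 at E10.5). Pmepa1, a membrane protein that restrains TGFβ signalling, had a pair of peaks 58.8 and 64.1 kb upstream, in an interval that also held 6 E10.5 peaks. The wider of them, chr2:173159071-173162558, held 19 SMAD boxes over 3488 bp. Tgif2, a corepressor, had a peak 24.6 kb upstream (46.9). In a list of 9 genes taken here as BMP targets, Id2 and Hes1 had a peak at 522 kb and 121 kb from their start. Their intervals held 6 and 3 E10.5 peaks, and 4 of the 9 were next to an E10.5-only peak. The paper names Id2 as a sensor of BMP signalling and does not name Hes1.

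Of 47 limb bud transcription factor genes, 9 were next to such a peak (19.1%), and 16 (34.0%) were next to an E10.5-only distal peak between genes, beside 4.12% and 7.55% of all protein-coding genes. The best-scored was chr13:55948005-55951006 (93.7), 12 kb upstream of Pitx1, which specifies hindlimb identity, and a second peak (55.4) lay 189 kb upstream of the same gene. Lmx1b, which sets dorsal identity in limb mesenchyme, had a peak of 5098 bp at 38.7 kb upstream (63.4) with 27 SMAD boxes, and an E10.5 peak was 5.83 kb from it. Meis1, a proximal limb factor, had one 75.4 kb upstream (65.1), with 0 SMAD boxes over its whole width. Sp6, a factor of the limb ectoderm, En1, of the ventral ectoderm, and Twist2, a mesenchymal bHLH factor, had peaks at 20.5, 20.4 and 15.0 kb upstream (63.3, 51.6 and 45.7). Irx3, a factor of the anterior and proximal limb bud, had 2 peaks, 25.4 and 65.8 kb upstream (52.3 and 43.5). The peaks next to Tbx18 and Sall3 were 550 and 1336 kb from the gene. In 3 of the 11 cases the interval held no E10.5 peak, compared with 64.2% of all 520.

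In the SHH pathway, 4 of 12 genes were next to an E9.5-only intergenic peak (33.3%), and 1 of 12 (8.33%) was next to an E10.5-only distal peak between genes. The difference between the 2 sets was not tested. All 4 genes encode proteins of the cell surface that bind SHH. Ptch1, the receptor and a target of the pathway, had the peak chr13:63710829-63711778 36.8 kb upstream (143, 7 SMAD boxes over 950 bp). Gas1, a co-receptor, had 2 peaks, at 51.0 and 325 kb downstream (51.5 and 53.2). Cdon, another co-receptor, had a peak 80.5 kb upstream (68.4), and Hhip, a decoy receptor, had one 402 kb upstream (53.1). No E10.5 peak lay in the intervals of these 5 peaks, as in 64.2% of all 520. The nearest was 42.4 kb from the Ptch1 peak, 48.2 kb from the closer Gas1 peak and over 100 kb from the others. Peaks close to transcript starts or inside genes are not counted here, so a gene without a peak in this set can have 1 elsewhere.

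Among other signalling genes, 4 of 17 in the FGF pathway, 3 of 16 in the retinoic acid pathway and 2 of 28 in the WNT pathway were next to an E9.5-only intergenic peak, compared with 4.12% of all genes. The 4 FGF genes include Fgfr2, whose annotated 5′ end is 3160 kb from the peak, so this count depends on an unusually long gene record. The E10.5-only distal peaks between genes were next to 4, 3 and 8 of the same genes. Crabp1, which binds retinoic acid in the cytoplasm, had one 9.53 kb downstream of its start (52.0), and Aldh1a3, which synthesises retinoic acid, had one 56.3 kb upstream (47.6). The peaks next to the FGF and WNT genes were all more than 100 kb from the gene start, the closest being that of Spred1, an inhibitor of receptor tyrosine kinase signalling, at 107 kb. Of 13 chondrogenic regulators, 4 were neighbours, and 5 were neighbours of the E10.5-only peaks. Barx2, a homeobox gene of cartilage and muscle, had a peak of score 118 at 84.5 kb upstream with 5 SMAD boxes in the central window. Pkdcc, a secreted kinase needed for long bone growth, had one 50.3 kb upstream (70.9), Pthlh, which keeps chondrocytes immature, had one 118 kb downstream (56.1), and Sox5 had one at 1379 kb (34.7). Among 39 HOX genes, 2 were next to an E9.5-only intergenic peak and 0 to an E10.5-only one, beside 4.12% and 7.55% of all genes. Their stretches on both sides together had a median of 10.8 kb, compared with 49.0 kb for all protein-coding genes. The part of this length in the counts was not tested. By distance, 9 of the 39 (23.1%) had a start within 100 kb of an E9.5-only intergenic peak, compared with 5.10% of all protein-coding genes. Genes this close together can share 1 peak. Hoxc10 and Hoxc11 shared the E9.5-only peak between them, chr15:102789813-102791137 (69.5), 5.62 kb downstream of the Hoxc11 start.

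Genes of tissues next to the limb bud were among the neighbours too. Of 22 neural tube and neural crest regulators, 6 were next to such a peak (27.3%). The peak chr13:117083729-117084741 (84.6), 15.7 kb downstream of the Isl1 start, was 728 kb from any E10.5 peak. Tfap2b (Tcfap2b in the annotation), a neural crest factor, had a peak 32.7 kb downstream of its start (53.0). The peaks next to Foxd3, Nkx6-1 and Pax6 were 197, 74.2 and 147 kb from the gene start. Of 21 endothelial and blood regulators, 4 were neighbours, with Tal1 at 20.4 kb (58.2), Sox7 at 23.0 kb (34.1), Runx1 at 78.0 kb (62.2) and Kdr at 138 kb (68.6). Of 19 regulators of endoderm, heart and flank mesoderm, 4 were neighbours. Tbx20 and Gata4, both cardiac and mesodermal factors, had peaks 6.92 and 35.7 kb upstream (59.0 and 72.5), and the peaks next to Wt1 and Bnc2 were 80.3 and 680 kb away. Of 25 somite and muscle regulators, Foxd1 and Tcf21 were neighbours, at 84.2 and 269 kb. The E10.5-only distal peaks between genes were next to 4 of the neural, 5 of the endothelial and blood, 3 of the endoderm, heart and flank and 5 of the somite and muscle genes, beside 7.55% of all protein-coding genes for that set and 4.12% for the E9.5-only set. Whether the 2 sets differ in these lists was not tested. With trunk tissue dissected at least at E9.5, these counts cannot be assigned to limb bud cells or to trunk cells.

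The SMAD box was next compared between the peaks and their surroundings. In the central 300 bp it was found, on either strand, in 344 of 520 peaks (66.2%, 95% Wilson interval 62.0 to 70.1%), and over the whole peak in 487 (93.7%). The windows 2 kb to the left of the same peaks held it in 51.9% (difference 14.2 percentage points, exact adjusted p = 3.1e-05, two-sided exact McNemar test over 24 sequences). The SMAD box followed by C (CAGACC) was found in 23.3% and 15.6% (exact adjusted p = 0.0095, and 0.059 among peaks with a score of 50 or more). The palindrome was found in 7 windows and in 0 of the flanks, which allows a flank share of up to 0.577% (exact adjusted p = 0.053). The GC-rich form was found in 16 windows (3.08%) and 6 flanks (exact adjusted p = 0.14), but passed the test against the flanks 5 kb to the left, of which 4 held it (exact adjusted p = 0.023). GGCGCC followed after 5 bases by GTCT, the bipartite form of BMP-responsive elements, was found in 0 windows and 0 flanks, which allows up to 0.577% in each. These letters say nothing about binding by a factor.

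The gain over the flanks was lost in pairs of similar base composition. The median GC content was 52.0% at the centres and 45.0% in the left flanks. In the 173 peaks whose centre and flank differed by 5 percentage points or less, the SMAD box was found in 60.1% of centres and 59.5% of flanks (exact adjusted p = 1.0), and none of the 24 sequences passed the test (0 calls, with 1 at an unadjusted p under 0.05). The GC-rich form was there in 0 centres and 4 flanks, and the palindrome in 4 centres and 0 flanks. CAGACC was found there in 21.4% of centres and 17.9% of flanks (difference 3.47 points).

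The number of SMAD boxes was highest in a narrow zone around the centre. Per 100 bp bin, the mean number was 4.52 ± 0.43 (SE over 520 peaks) matches per kb just left of the centre and 4.54 ± 0.53 just right of it, and 2.92 ± 0.25 and 2.79 ± 0.30 at 500 to 600 bp from it. GC content fell over the same distance, from 52.2% to 46.3% and 45.8%. A few windows with tandem copies added to the central mean. In 3 of 520 windows the box occurred 10 times or more, with 44 matches in the window of chr4:106778645-106784705 next to Cdcp2, 23 in that of chr9:73097246-73098223 and 13 in the Epha7 window. Without these 3 the mean number per 300 bp window was 1.16 rather than 1.31.

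**Figure D4:**
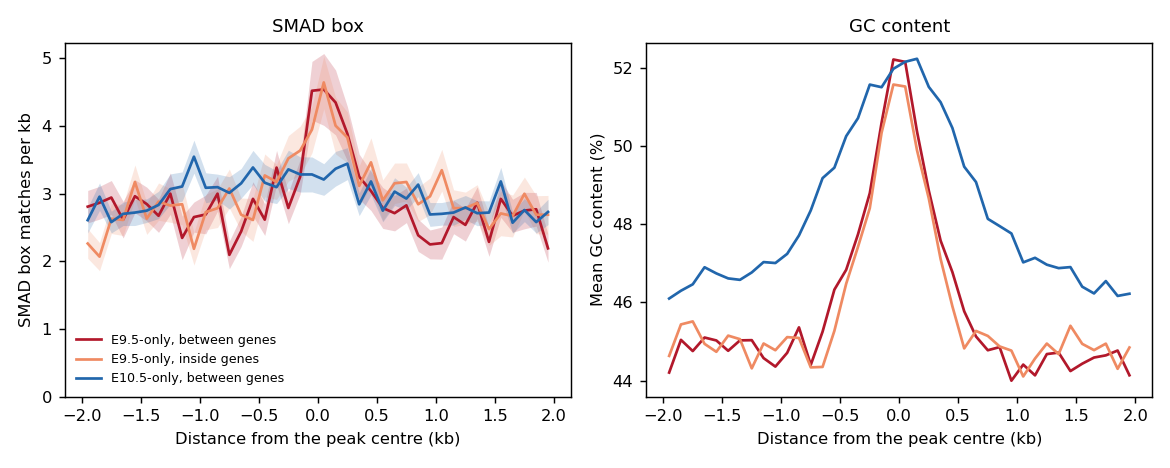
SMAD box matches per kb (left, mean with SE as a band) and mean GC content in percent (right) in 100 bp bins by distance from the peak centre in kb, for E9.5-only distal peaks between genes (red), E9.5-only distal peaks inside genes (orange) and E10.5-only distal peaks between genes (blue). Both E9.5-only sets peak within 0.3 kb of the centre, to about 4.5 matches per kb, whereas the E10.5-only set stays near 3.3.

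Compared with E10.5-only distal peaks between genes, the E9.5-only set held the SMAD box more often at its centre. The shares were 66.2% of 520 and 57.1% of 1066 (difference 9.02 percentage points, 95% Newcombe interval 3.92 to 14.0, exact adjusted p = 0.042 over 72 tests, two-sided Fisher's exact test). At least 2 boxes were found in 32.3% and 22.0% of windows. The difference passed the test narrowly and was no longer past the threshold in 3 of 5 alternative settings. It was about as large, at 8.53 points (exact adjusted p = 0.12), in windows of 40 to 60% GC and, at 8.12 points (exact adjusted p = 0.30), for scores of 50 or more. Whole peaks of 500 to 1500 bp held the box in 93.8% of 356 and 92.0% of 274 cases. There the difference was 1.85 points (interval -2.16 to 6.20, exact adjusted p = 0.94), and the interval did not reach 9.02 points. Peak width moved with it, with a median of 1080 bp in the E9.5-only and 2256 bp in the E10.5-only set. The lists give no summits, so the centre stands in for the strongest point of each peak.

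**Figure D5:**
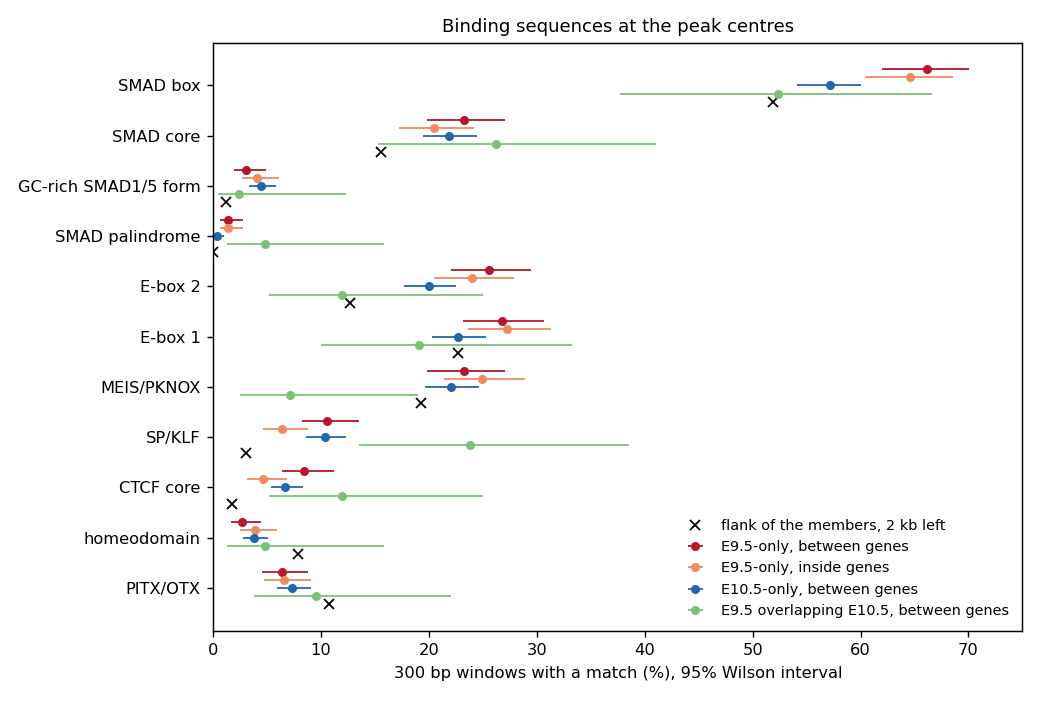
Percentage of 300 bp central windows with at least 1 match to each sequence family (points, with 95% Wilson intervals) in 4 sets of distal peaks, and in the windows 2 kb to the left of the E9.5-only intergenic peaks (crosses). The SMAD box share is 66.2% in the E9.5-only intergenic peaks and 57.1% in the E10.5-only ones, and the set of 42 overlapping peaks has wide intervals.

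The same share was 64.6% in the E9.5-only distal peaks inside genes (difference 1.55 points, interval -4.23 to 7.32, exact adjusted p = 1.0). In the 42 intergenic E9.5 peaks that overlap an E10.5 peak it was 52.4%, and the difference of 13.8 points had an interval from -1.08 to 29.0 (exact adjusted p = 0.51). The palindrome was in 1.35% of the E9.5-only intergenic peaks, 1.35% of those inside genes, 0.375% of the E10.5-only intergenic peaks and 4.76% of the overlapping ones, with exact adjusted p from 0.43 to 1.0. The GC-rich form was in 3.08%, 4.06%, 4.41% and 2.38% (exact adjusted p from 0.83 to 1.0). The SMAD box share showed no steady order with the score. In 4 groups of 130 peaks, from the lowest to the highest scores, the shares were 68.5%, 65.4%, 63.8% and 66.9%.

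Sequences of other factor families were searched on both strands in the same windows. Against the flanks, the E-box CAGCTG, a site of bHLH factors, was found in 25.6% and 12.7% (exact adjusted p = 3.2e-06, exact McNemar test). The SP/KLF sequence GGGCGG was found in 10.6% and 3.08% (exact adjusted p = 6.0e-06) and AGGGGGC, part of the CTCF motif, in 8.46% and 1.73% (exact adjusted p = 6.0e-06). The AT-rich homeodomain core TAATTA was less frequent at the centres, with 2.69% and 7.88% (exact adjusted p = 0.0013), a call that was lost in 200 bp windows (-2.88 points, exact adjusted p = 0.080). None of these differences was past the threshold in the 173 pairs of similar GC content. Unlike that of the SMAD box, the CAGCTG difference was still 9.83 points there, with shares of 25.4% and 15.6% (exact p = 0.033, exact adjusted p = 0.75). Of the sequences searched, 0 differed from the E9.5-only peaks inside genes and 0 from the overlapping peaks after adjustment (2 and 3 of 24 at an unadjusted p under 0.05, Fisher's exact test). The largest difference from the peaks inside genes was that of GGGCGG, with 10.6% between genes and 6.38% inside (exact adjusted p = 0.21).

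Base composition did not differ past the threshold at the limits set for the tests. A GC content of 50% or more was found in 70.2% of the E9.5-only intergenic windows, 65.2% of those inside genes, 66.1% of the E10.5-only intergenic windows and 69.0% of the overlapping ones (exact adjusted p from 0.22 to 0.86, Fisher's exact test). An observed to expected CpG ratio of 0.6 or more, as in CpG islands, was found in 4.04%, 3.09%, 5.07% and 11.9% (exact adjusted p from 0.22 to 0.60). With the limit at 60% GC, the E9.5-only intergenic peaks had fewer GC-rich windows (3.27%) than the E10.5-only ones (7.04%, exact adjusted p = 0.0059) and than the overlapping ones (16.7%, exact adjusted p = 0.0059). The 42 overlapping peaks limit what the last comparison can resolve.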

How the data were processed

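SMAD4 ChIP-seq peak lists were analysed, 1 per stage. According to the methods and the submitters' processing notes, the authors aligned reads to mm9 with Bowtie 1.1.0, called peaks per replicate against input with MACS 1.4 and merged replicates with MSPC. The deposited score of each peak is the authors' value in an unnamed unit, possibly the log-scaled MACS p-value kept at merging. It was ranked and set against list medians only. Groups (stage, ChIP or input) follow the sample titles, and the input has no values here.

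Peaks were placed on NCBIM37 (mm9) with GENCODE vM1 (1-based). The genome is not soft-masked, so repeats were not measured. Windows of 300 bp at peak centres were searched for 24 sequences on both strands. Shares were compared by two-sided Fisher's exact tests between sets (Newcombe intervals) and by exact McNemar tests against windows 2 kb to the left, with Benjamini-Hochberg adjustment within each family of tests (threshold 0.05). Peaks named are the 10 best-scored, the closest groups, those next to listed genes, those with a palindrome and those at the limits of the rule. Further peaks (rich in SMAD boxes, near Kit) were named after their values were seen. Of 322 listed symbols, 321 matched, some through RefSeq synonyms (GRCm38.p6). The scripts were tested on simulated data. Software was SciPy 1.17.1, NumPy 2.4.6 and pandas 2.3.3 in Python 3.11.15, with Matplotlib 3.10.9 for plots. The peak set and the gene lists were chosen with earlier results of these data known. The values of 1 further listed gene are not reported here.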

Additional observations from a re-analysis of the deposited data

How the results depend on the processing

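The number of E9.5-only intergenic peaks stayed within 1.5 times 520 under 8 other rules (390 to 560). The SMAD box difference from the E10.5-only intergenic peaks was 8.53 points in windows of 40 to 60% GC and 8.12 points for scores of 50 or more, about as large but no longer past the threshold. For whole peaks of 500 to 1500 bp it was 1.85 points, where nearly all peaks of both sets held the box, so this setting could not show it. In these settings 0 of 24 sequences passed, and in 200 bp windows 2 did, compared with 1 in 300 bp windows. At similar GC content of centre and flank, 0 sequences differed from the flanks rather than 6, and the SMAD box difference was 0.578 rather than 14.2 points. There, fewer pairs (173) were tested. With a limit of 60% GC, 2 rather than 0 comparisons of base composition passed. Against the flanks 2 kb to the right and 5 kb to the left, 8 and 9 sequences passed rather than 6. The GC-rich form passed against the flank 5 kb to the left only (2.31 points). The PITX/OTX sequence TAATCC was less frequent at the centres in both settings (-6.54 and -6.92 points). So were the RUNX sequence AACCACA against the right flank (-6.15 points) and the SOX/TCF sequence AACAAAG against the flank 5 kb to the left (-3.85 points). The call of CAGACC was also lost for scores of 50 or more (7.44 points) and that of TAATTA in 200 bp windows (-2.88 points). Taking the gene of the nearest protein-coding start gave 482 rather than 921 genes, and 27 rather than 51 listed genes. Elsewhere the cause was not tested. No paired analysis was possible because both replicates of a stage were merged before deposition, so neither could be left out. The unknown depth limits every absence of a peak, and counting intervals cover sampling of peaks only.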
